A study of Mus musculus with 8 samples.

Results

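The cadherins and protocadherins were described in the transcriptome of cultured mouse dermal fibroblasts with and without a deletion of *Tgfb1*. Members were the genes whose symbol begins with Pcdh, or with Cdh, Fat, Dchs, Dsg, Dsc or Celsr followed by a digit. The rule used no expression value, but it was chosen with earlier results of these data known. The deposited table holds 15111 genes, of which 72 met the rule. They were 10 classical cadherins (4 of type I and 6 of type II), 41 clustered protocadherins (2 alpha, 18 beta and 21 gamma), 8 non-clustered protocadherins and 13 others. The others were 5 Fat and Dchs cadherins, 3 Celsr cadherins, the desmosomal cadherin *Dsc2* and 4 remaining members. GENCODE M21 lists 110 protein-coding mouse genes with such symbols and 71 of them were in the table, where *Pcdhgb8*, a polymorphic pseudogene, was the other member. The authors kept genes with at least 40 reads over all libraries, and 12 of the 14 alpha protocadherins, all 6 desmogleins and 2 of the 3 desmocollins were not analysed here.

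Cadherins are transmembrane adhesion receptors built from repeated extracellular domains that bind calcium, and they hold cells together by contact with cadherins of the neighbouring cell. Classical cadherins tie these contacts to the actin cytoskeleton through β-catenin, α-catenin and p120-catenin, whereas desmosomal cadherins tie them to intermediate filaments through plakoglobin, plakophilins and desmoplakin. Clustered protocadherins are encoded in tandem arrays of large variable exons, each with a promoter of its own, and in the alpha and gamma arrays these exons are spliced to shared constant exons. Fat, Dchs and Celsr cadherins are very large proteins best known for planar cell polarity. Fibroblasts are known to carry N-cadherin (*Cdh2*) and cadherin 11 (*Cdh11*), and E-cadherin (*Cdh1*) is the defining cadherin of epithelia.

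Control fibroblasts came from mice with floxed *Tgfb1* alleles and no Cre (Tgfb1fl/fl), and TGFβ1FKO fibroblasts from mice that also carried the Col1a2-CreERT transgene (Tgfb1fl/fl:Col1a2-CreERT), a Cre recombinase that is driven by *Col1a2* regulatory sequence and acts only in the presence of tamoxifen. Mice of both groups were fed tamoxifen, and dermal fibroblasts were isolated from them as adults, from back skin that included the epidermis. The paper describes no sorting of these cells, which were first cultured in medium with serum. The cells were then kept on fibronectin in a serum-free replacement medium for 72 h before RNA was taken. There were 4 libraries per group, and no source used here states that each came from a separate mouse, so p-values measure only the spread between these libraries. *Tgfb1* had normalised counts of 1401, 1298, 1483 and 1314 in the control libraries and of 326, 259.9, 228 and 295 in the TGFβ1FKO libraries, which left 20.2% of the control mean. Depth was alike in the groups, with 16988998 to 21806579 reads on the listed genes in control libraries and 17445002 to 23071528 in TGFβ1FKO libraries. All 12 fibroblast markers, such as *Col1a1*, *Pdgfra* and *Dcn*, were measured, with 0 called by limma, edgeR or DESeq2 and 0 at an unadjusted p under 0.05, and their summed normalised counts ranged from 1508677 to 1849064 in controls and from 1588525 to 1714316 in TGFβ1FKO libraries.

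*Pcdh20*, a non-clustered protocadherin, fell in TGFβ1FKO fibroblasts and was the member that passed the test between genotypes. *Cdh19*, a type II cadherin, had the next lowest log2 fold change but missed the threshold. A member was called when limma's adjusted p was under 0.05 and the absolute log2 fold change over 0.6, on the scale of log2(normalised count + 1), which understates changes of genes with few reads. This called 1 of the 72 members, against 0.086% of all genes tested, or 0.0794% when only lower genes are counted. *Cdh19*, *Pcdh20* and *Pcdhb7* were lower in every TGFβ1FKO library than in every control library. These 3 members without overlap of the groups were 4.17% of the superfamily, against 2.1% of all genes in that direction and 3.79% in either. An unadjusted p under 0.05 was reached by 7 members (9.72%), 5 lower and 2 higher, where 7.46% of all genes reached it, 3.87% lower and 3.59% higher. By DESeq2's test against 0, which called 0.371% of all genes (0.344% lower), *Pcdh20* and *Cdh19* were called, and by edgeR's test, which called 0.132% (0.119% lower), *Pcdh20* alone was.

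*Pcdh20* encodes protocadherin 20, a non-clustered protocadherin, and lies on the minus strand of chromosome 14 of GRCm38 from 88464743 to 88471396. No other annotated gene overlaps its exons. It is shown here by its promoter because it is the called member, beside the promoters of *Pcdh18* and *Pcdh19*, the most abundant non-clustered protocadherins, which did not pass the test. The sequences are from RefSeq on GRCm38.p6 and run 5′ to 3′ from 250 bases before to 50 bases after the start of transcription, and all 3 genes are on the minus strand. They cover chr14:88471347-88471646 for *Pcdh20*, chr3:49757267-49757566 for *Pcdh18* and chrX:133688944-133689243 for *Pcdh19*. Capitals mark matches to 3 motifs on either strand. These were the SMAD box, CAGAC, the RBPJ core, which was searched as TGGGAA, and the core bound by SOX factors, which was searched as ACAAAG. An E-box, CAGGTG, and the TATA box, TATAAA, were also searched and matched in none of the 3 windows.
Pcdh20: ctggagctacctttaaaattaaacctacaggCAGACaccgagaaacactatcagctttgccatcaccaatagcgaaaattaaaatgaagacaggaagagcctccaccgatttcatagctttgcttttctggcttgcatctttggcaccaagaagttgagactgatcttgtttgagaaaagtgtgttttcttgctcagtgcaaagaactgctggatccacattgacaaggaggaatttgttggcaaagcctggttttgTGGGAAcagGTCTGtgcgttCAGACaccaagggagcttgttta
Pcdh18: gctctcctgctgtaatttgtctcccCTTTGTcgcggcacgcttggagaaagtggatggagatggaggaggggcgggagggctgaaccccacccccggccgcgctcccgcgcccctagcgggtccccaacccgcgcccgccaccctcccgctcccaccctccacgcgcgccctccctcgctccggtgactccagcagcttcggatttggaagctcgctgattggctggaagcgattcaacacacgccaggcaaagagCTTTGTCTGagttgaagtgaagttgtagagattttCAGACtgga
Pcdh19: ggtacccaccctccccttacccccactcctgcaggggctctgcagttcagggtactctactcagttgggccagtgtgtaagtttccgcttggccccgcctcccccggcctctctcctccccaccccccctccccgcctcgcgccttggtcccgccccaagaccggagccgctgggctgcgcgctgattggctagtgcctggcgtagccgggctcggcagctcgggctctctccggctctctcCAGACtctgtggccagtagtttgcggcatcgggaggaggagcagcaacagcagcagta
The *Pcdh20* window held 4 CpG dinucleotides and 43.7% G and C, whereas *Pcdh18* held 23 CpG and 63.0% and *Pcdh19* 18 CpG and 67.7%. The median over 32851 promoters of the same length was 7 CpG and 52.7% G and C. The SMAD box matched in *Pcdh20* at positions -219, 17 and 28 from the start, in *Pcdh18* at 11 and 42 and in *Pcdh19* at -8, and it is in 49.6% of all promoters. The RBPJ core matched in *Pcdh20* at position 8 and is in 25.6% of all promoters. The SOX core matched in *Pcdh18* at positions -225 and 7, where the latter shares bases with a SMAD box, and is in 18.7% of all promoters. Promoter entries were found for 17 of the 72 members, of which *Cdh26*, *Pcdh18* and *Cdh6* held the SOX core.

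The normalised counts of *Pcdh20* were 103, 65.9, 99.8 and 31.6 in the control libraries and 13.2, 4.14, 14.1 and 5.54 in the TGFβ1FKO libraries. The lowest control library, replicate 4, stood well above the highest TGFβ1FKO library. The mean fell from 75.1 ± 33.6 (SD, n = 4) to 9.24 ± 5.13 (SD, n = 4), which is 12.3% of the control mean. Limma put the log2 fold change at -2.91 (standard error 0.43, adjusted p = 0.033), and the exact permutation test gave p = 0.0286, the smallest two-sided p that 4 libraries against 4 allow. The call rested on single libraries, since without control replicate 1, 2 or 3 or TGFβ1FKO replicate 2 or 4 the adjusted p lay between 0.0582 and 0.214, while the log2 fold change stayed between -3.27 and -2.63.

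*Cdh19* encodes a type II classical cadherin known from Schwann cell precursors, and the gene spans 110888326 to 110977584 of chromosome 1 (GRCm38). Its normalised counts were 84.3, 105, 144 and 29.6 in control libraries and 15.2, 14.5, 23.3 and 6.65 in TGFβ1FKO libraries. The groups did not overlap, and replicate 4 was again the lowest of the controls. The means were 90.8 ± 47.7 in controls and 14.9 ± 6.78 in TGFβ1FKO fibroblasts (SD, n = 4 each), which is 16.4% of control, with a log2 fold change of -2.44 (standard error 0.45) that missed the threshold (adjusted p = 0.0799, limma). Without control replicate 4 the log2 fold change was -2.90 and *Cdh19* was called (adjusted p = 0.00361, limma). No other fit with 1 library left out called *Cdh19*, and its adjusted p rose as far as 0.321 (limma) among them. Its adjusted p was 0.0502 by edgeR, and by DESeq2's test against 0 it was called.

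Markers of Schwann cells were lower as well. Of 14 such markers 13 were measured, and all 13 were lower in TGFβ1FKO fibroblasts, against 49.1% of all genes. Their median log2 fold change was -2.04 beside 0.003 over all genes. *Sox10* and *Foxd3* were among those called. *Sox10*, a transcription factor of glia and melanocytes, had 132, 148, 207 and 72.1 normalised counts in controls and 19.3, 7.25, 18.3 and 21.1 in TGFβ1FKO libraries. As with *Pcdh20* and *Cdh19*, the lowest control library was replicate 4. The summed normalised counts of the 13 markers, most of which came from *Ngfr*, ranged from 2315 to 3348 in controls and from 1430 to 2471 in TGFβ1FKO libraries. The list was written with earlier results of these data known and is not independent evidence of its direction. The part of these cells in the low counts of *Pcdh20* and *Cdh19* was not tested, and in bulk RNA fewer cells of a type and less RNA per cell cannot be told apart.

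*Pcdhb7*, a protocadherin of the beta cluster, had low counts with little scatter. They were 22.4, 19.1, 31.0 and 21.7 in control libraries and 14.2, 15.5, 16.6 and 13.3 in TGFβ1FKO libraries. The groups did not overlap, and the TGFβ1FKO mean was 63.3% of control, with a log2 fold change of -0.61 (standard error 0.25) that did not pass (adjusted p = 0.641, limma).

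**Figure D1:**
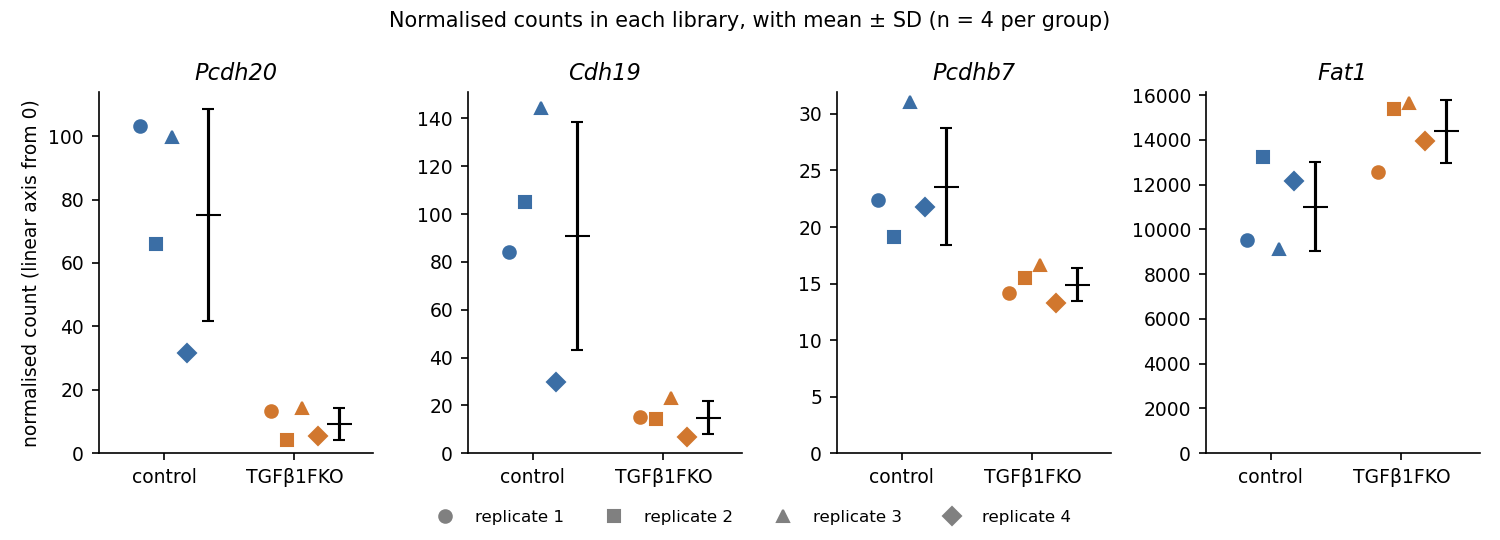
Normalised counts, on linear axes from 0, of *Pcdh20*, *Cdh19*, *Pcdhb7* and *Fat1* in the 4 control (blue) and 4 TGFβ1FKO (orange) libraries, with a marker shape for each replicate number and bars for mean ± SD. The groups are apart in the 3 genes on the left, where control replicate 4 is the lowest control of *Pcdh20* and *Cdh19*, and in *Fat1* the control library at 13250.4 lies above the TGFβ1FKO library at 12567.

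Across the superfamily 32 members (44.4%) had a log2 fold change below 0, against 49.1% of all genes, and 40 were above it, with a median of 0.02. The median absolute log2 fold change was 0.20, against 0.09 over all genes, and 47 members (65.3%) lay within 0.25 of 0, against 81.9% of all genes. Many members had few reads. A mean normalised count under 50 was found for 27 members, whose median absolute log2 fold change was 0.32 beside 0.27 for all genes in that range, and for the other 45 it was 0.11 beside 0.07. Of these 27 members 19 were lower (70.4%, against 56.1% of all genes in that range). Of the other 45 only 13 were lower (28.9%, against 46.9%). The 45 include gamma protocadherins, which share constant exons. In 7 members at least 1 library held 3 reads or fewer, and 9 members had a mean under 10 reads, so that changes in these were not well measured at this depth.

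**Figure D2:**
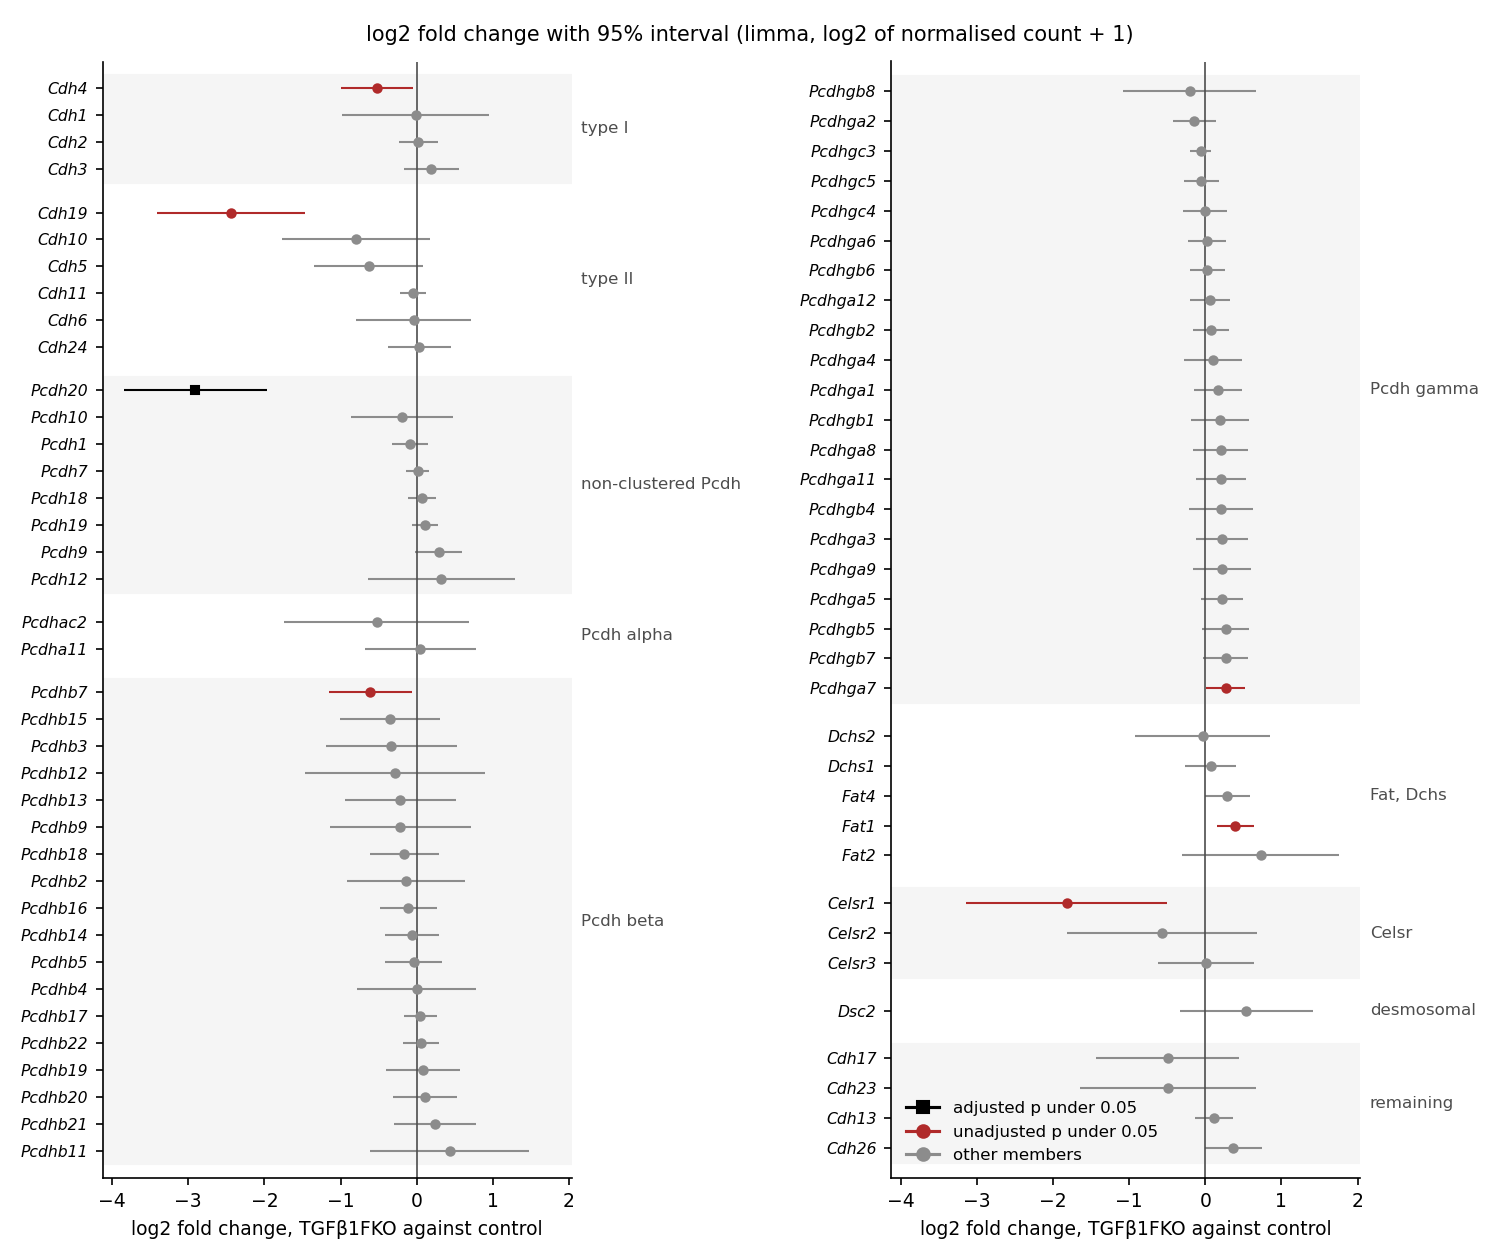
log2 fold change of each of the 72 members (TGFβ1FKO against control, points) with its 95% interval from limma (bars), grouped by subfamily and ordered by value within each. *Pcdh20* (black square, -2.91) is the member with an adjusted p under 0.05, red points mark an unadjusted p under 0.05, and the gamma protocadherins crowd between -0.21 and 0.27.

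The classical cadherins of these fibroblasts were led by *Cdh11* and *Cdh2*, and in both the difference between genotypes was smaller than the spread between replicates. Levels of different genes are compared here as normalised counts per kb of exon that no other gene covers. *Cdh11*, which carries adhesion between mesenchymal cells, had 7359, 8103, 7887 and 9231 normalised counts in controls and 7112, 8877, 7549 and 8061 in TGFβ1FKO libraries. The groups overlapped fully, and the log2 fold change of -0.04 had a 95% interval from -0.22 to 0.13. Per kb, *Cdh11* stood at 915 ± 88.6 in controls and 887 ± 85.2 in TGFβ1FKO fibroblasts (SD, n = 4), above 93.2% of all genes. *Cdh2* reached 207 ± 29.7 and 209.7 ± 34.3 per kb, with a log2 fold change of 0.02 and a 95% interval from -0.24 to 0.27. P-cadherin (*Cdh3*) followed with 84.1 ± 13.7 and 97.9 ± 26.5 per kb, and its log2 fold change of 0.19 did not pass (adjusted p = 0.815, limma).

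The remaining classical cadherins were scarce. R-cadherin (*Cdh4*) had 72.3, 74.4, 109 and 137 normalised counts in controls and 56.8, 77.7, 54.0 and 77.6 in TGFβ1FKO libraries. These groups overlapped, and the log2 fold change of -0.52 did not pass (adjusted p = 0.647, limma). E-cadherin (*Cdh1*) stood at 1.63 ± 0.91 per kb in controls and 1.53 ± 0.63 in TGFβ1FKO fibroblasts (SD, n = 4), with 4 to 12 reads per control library and 5 to 11 per TGFβ1FKO library. The 8 measured repressors of *Cdh1* transcription, among them *Snai1*, *Snai2*, *Zeb1*, *Zeb2* and *Twist1*, differed by log2 fold changes between 0.003 and 0.07, and none reached an unadjusted p under 0.05. *Cdh10*, *Cdh6* and *Cdh24* had log2 fold changes of -0.80, -0.04 and 0.03 and did not pass.

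VE-cadherin (*Cdh5*), the cadherin of endothelial junctions, varied more between replicates than any of 200 genes of like mean. Its normalised counts were 107, 175, 208 and 93.8 in controls and 54.7, 117, 158 and 62.0 in TGFβ1FKO libraries. The ranges overlapped, and the log2 fold change of -0.63 did not pass (adjusted p = 0.702, limma). The 11 measured endothelial markers were all lower, against 49.1% of all genes, with a median log2 fold change of -0.47. Of them 8 had a mean under 50, a range in which 56.1% of all genes were lower. Limma, edgeR and DESeq2 called 0 of them, 2 had an unadjusted p under 0.05, and none was without overlap. The list was written with earlier results of these data known. Summed normalised counts of the 11 markers ranged from 504 to 758 in controls and from 429 to 541 in TGFβ1FKO libraries. Of these, *Pecam1* had 43.9, 61.6, 71.0 and 26.7 normalised counts in controls and 17.2, 44.5, 16.6 and 23.3 in TGFβ1FKO libraries. The part of endothelial cells in the level of *Cdh5* was not tested.

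**Figure D3:**
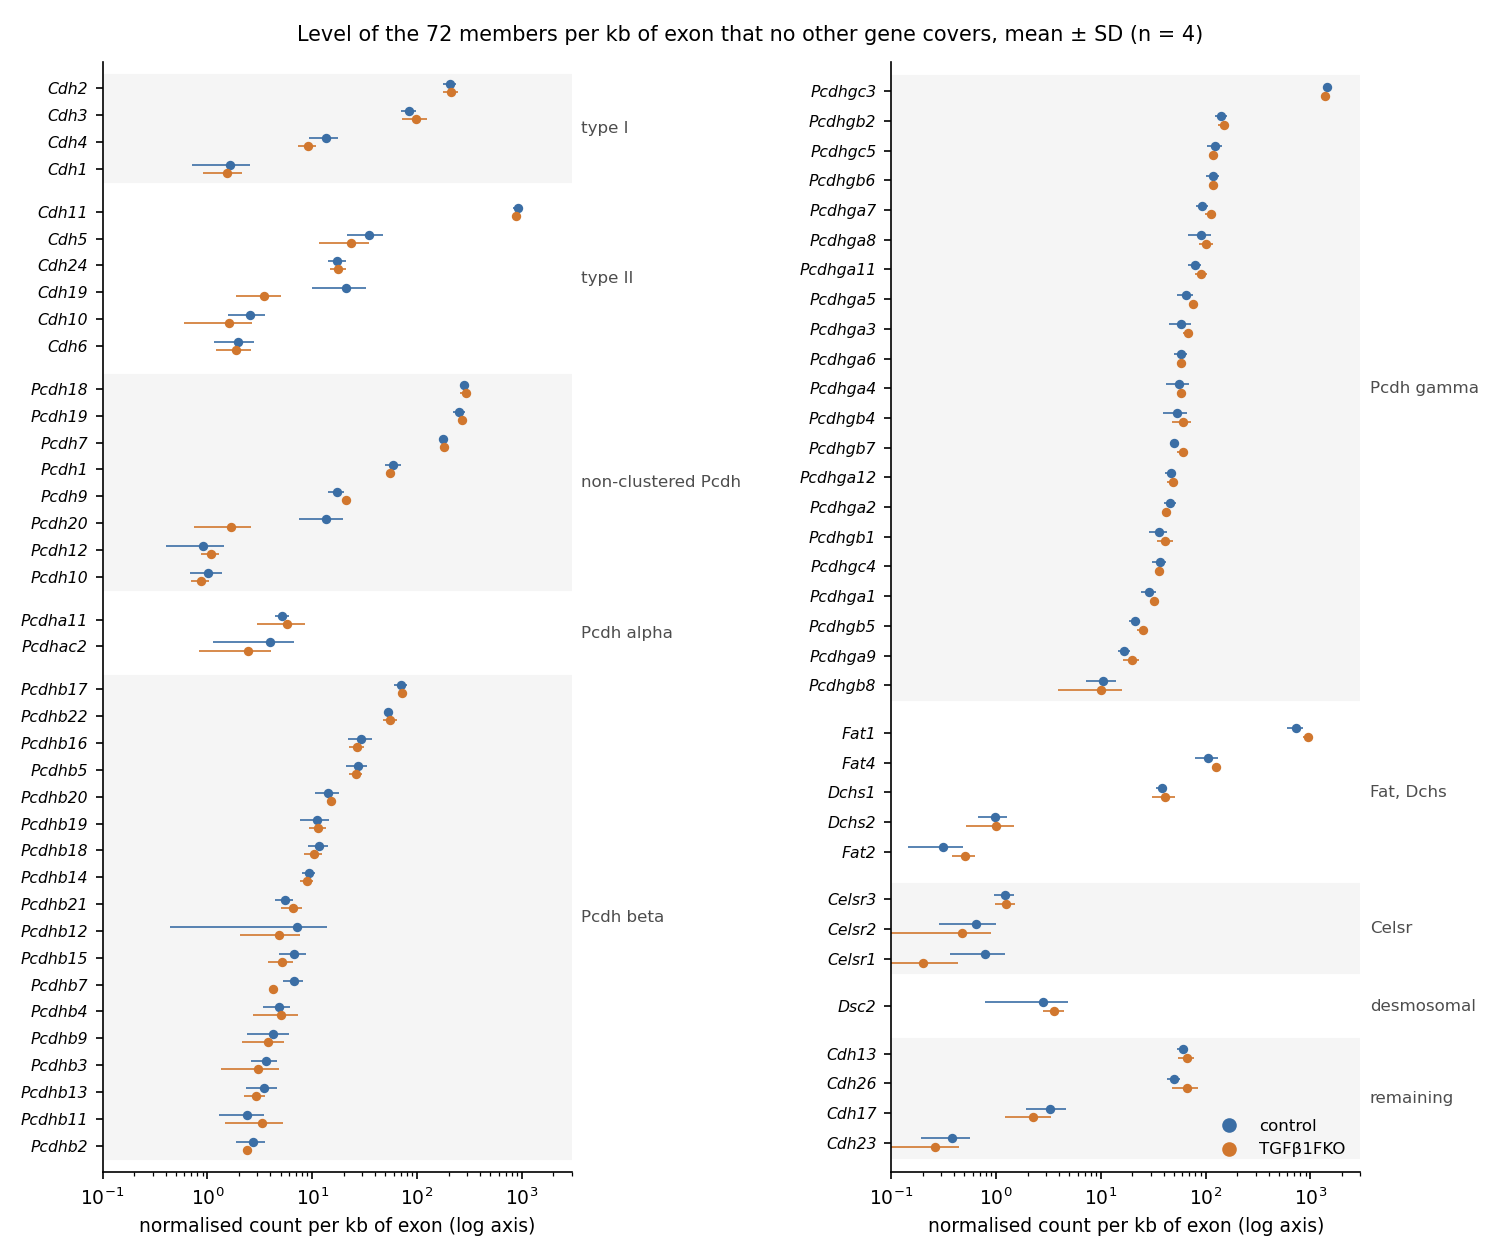
Level of each member in normalised counts per kb of exon that no other gene covers (log axis), as mean ± SD of 4 control (blue) and 4 TGFβ1FKO (orange) libraries, by subfamily. Lower bars that would reach 0 end at the axis or just above 0. *Pcdhgc3*, *Cdh11* and *Fat1* stand above the rest in both groups, and *Pcdh20* and *Cdh19* show the widest gaps between genotypes among members above 10 per kb in controls.

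Among the non-clustered protocadherins *Pcdh18*, *Pcdh19* and *Pcdh7* had the highest levels, and of the 8 only *Pcdh20* passed the test. *Pcdh18* stood at 278 ± 20.95 and 293 ± 37.0 per kb, *Pcdh19* at 253 ± 32.0 and 272 ± 15.2 per kb, and *Pcdh7* at 179 ± 14.9 and 180.4 ± 13.1 per kb in control and TGFβ1FKO fibroblasts (SD, n = 4). Their log2 fold changes were 0.07, 0.11 and 0.01, with 95% intervals that lay between -0.14 and 0.28 in all 3. *Pcdh9* had 131, 114, 89.8 and 135 normalised counts in controls and 139.9, 133, 159 and 137 in TGFβ1FKO libraries. These ranges overlapped by 1 TGFβ1FKO library, and the log2 fold change of 0.29 did not pass (adjusted p = 0.675, limma). *Pcdh1* (log2 fold change -0.09), *Pcdh10* (-0.19) and *Pcdh12* (0.32) did not pass either, and *Pcdh12* and *Pcdh10* stood at about 1 per kb.

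The 41 clustered protocadherins lie in 3 arrays on chromosome 18 of GRCm38, the alpha array ending at 37187657, the beta array from 37294812 to 37524479 and the gamma array from 37661793 to 37841873. Genes of the alpha and gamma arrays share constant exons, how the authors' counting divided those reads is not given in the sources used here, and so the split between genes of an array is uncertain. *Pcdhgc3*, a C-type gene at the end of the gamma array, was by far the most abundant, with 2441, 2723, 2461 and 2928 normalised counts in controls and 2619, 2472, 2579 and 2437 in TGFβ1FKO libraries. The groups overlapped, with a log2 fold change of -0.06 and a 95% interval from -0.20 to 0.08. It was at rank 1 of the 72 members at 1449 ± 128 per kb in controls (SD, n = 4), and when all its exons were counted, the shared ones included, it came to rank 3, after *Cdh11* and *Fat1*. An antisense gene, *BC037039*, overlaps it, and these non-directional libraries cannot tell the strands apart.

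The gamma array held 44.2% of the superfamily's summed level per kb in controls and 42.9% in TGFβ1FKO fibroblasts. *Pcdhgc3* alone made up 23.9% and 21.9% of that summed level. These shares divide by exon that no other gene covers, and they depend on how reads of the shared exons were counted. Members of the gamma array differed little between genotypes. Of 21 genes 16 had a log2 fold change above 0 and 5 below it (23.8%, against 49.1% of all genes). Because these genes share constant exons, their directions may not be separate observations. The median was 0.17, and the whole array lay between -0.21 and 0.27. *Pcdhga7* had an unadjusted p under 0.05, with 211, 226, 235 and 279 normalised counts in controls against 261, 317, 249.9 and 319. These ranges overlapped, and the log2 fold change of 0.27 did not pass (adjusted p = 0.654, limma). The summed normalised counts of the array were 5625, 6527, 5371 and 6682 in controls and 6123, 6214, 6322 and 6044 in TGFβ1FKO libraries, so that the TGFβ1FKO values lay within the control range. Control replicate 3 was the lowest, and without it the median log2 fold change of the gamma genes was 0.03.

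The beta array was lower and more uneven. *Pcdhb17* (70.6 in controls and 72.5 in TGFβ1FKO fibroblasts) and *Pcdhb22* (53.3 and 55.8) led it per kb, and 10 of its 18 genes had a mean under 50 normalised counts. Of these 18 genes 11 were lower and 7 higher, with a median log2 fold change of -0.09 that was 0.01 without control replicate 1 and 0.0019 without control replicate 2. Summed normalised counts were 1325 ± 132 in controls and 1316 ± 62.9 in TGFβ1FKO fibroblasts (SD, n = 4). The 2 measured alpha genes, *Pcdha11* and *Pcdhac2*, together had 9.17 ± 2.90 and 8.20 ± 3.32 normalised counts per kb (SD, n = 4). None of 9 genes known for protocadherin promoter choice and silencing, such as *Ctcf*, *Rad21*, *Wapl*, *Smchd1* and *Dnmt3b*, reached an unadjusted p under 0.05.

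**Figure D4:**
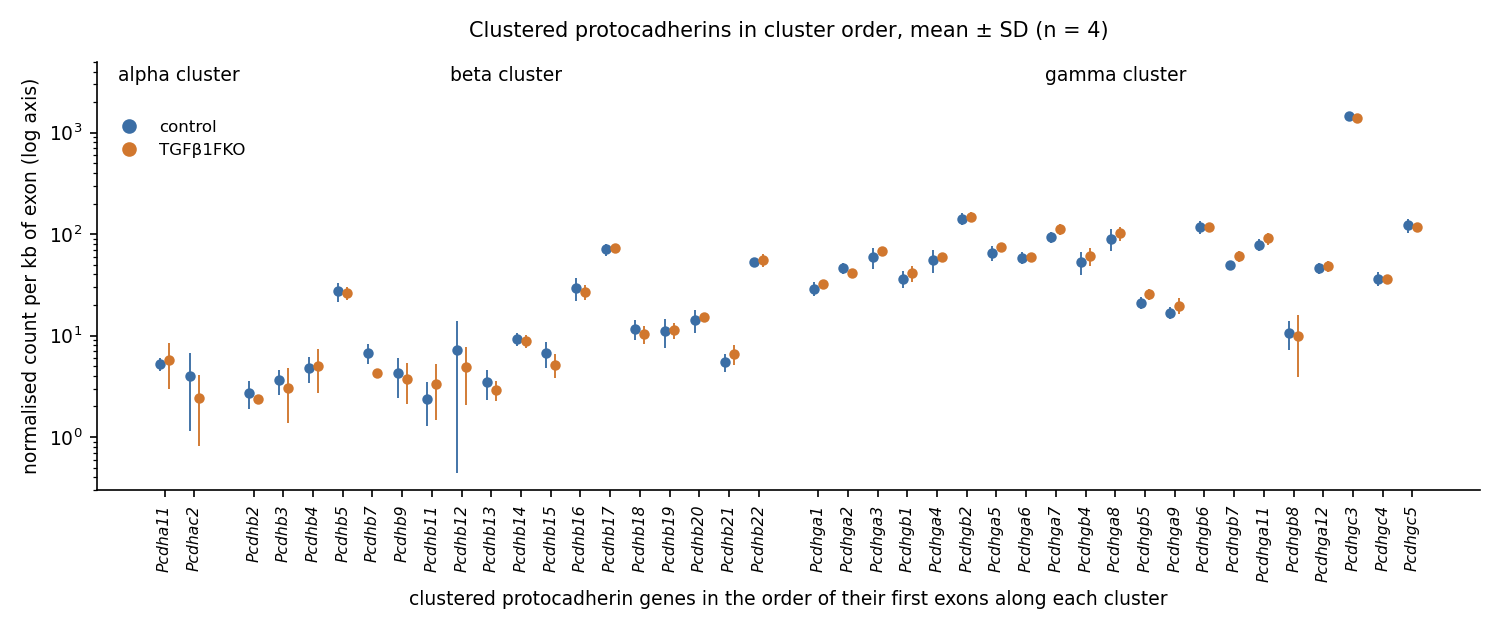
Level of the clustered protocadherins in normalised counts per kb of exon (log axis) in the order of the genes along each array, as mean ± SD of 4 control (blue) and 4 TGFβ1FKO (orange) libraries. Control and TGFβ1FKO means follow each other along all 3 arrays, the gamma genes lie mostly above the beta genes, and *Pcdhgc3* stands out near the end of the gamma array.

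The Fat cadherins *Fat1* and *Fat4* had higher means in TGFβ1FKO fibroblasts, but neither passed the test. *Fat1*, a giant protocadherin of the cell cortex that acts in cell polarity and migration, had 9545, 13250.4, 9129 and 12152 normalised counts in controls and 12567, 15387, 15622 and 13929 in TGFβ1FKO libraries. The ranges overlapped through control replicate 2. Its mean was 11019 ± 2001 in controls and 14376 ± 1419.8 in TGFβ1FKO fibroblasts (SD, n = 4), with a log2 fold change of 0.40 (standard error 0.11, adjusted p = 0.457, limma; exact permutation test, p = 0.0571). An antisense gene, *Gm2366*, overlaps part of *Fat1*.

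*Fat4*, the receptor for Dchs1, had 1426, 1759, 1233 and 2187 normalised counts in controls and 1941, 2059, 1804 and 2085 in TGFβ1FKO libraries. The highest single value was a control, and the log2 fold change of 0.29 did not pass (adjusted p = 0.671, limma). *Dchs1*, the ligand of Fat4, stood at 400.2 ± 49.7 and 427 ± 108 normalised counts (SD, n = 4), and *Dchs2* and *Fat2* at about 1 per kb or less. The summed normalised counts of the 5 Fat and Dchs genes were 13084 ± 2348 in controls and 16792 ± 1289 in TGFβ1FKO fibroblasts (SD, n = 4). The 11 planar cell polarity partners on the list, among them *Vangl1*, *Vangl2*, *Fzd6*, *Prickle1*, *Dvl1* and *Fjx1*, had log2 fold changes between -0.11 and 0.19, and none reached an unadjusted p under 0.05.

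*Celsr1*, the flamingo-type cadherin of planar polarity in skin, had 6.88, 7.44, 15.5 and 4.94 normalised counts in controls and 2.03, 1.04, 5.81 and 0 in TGFβ1FKO libraries. The TGFβ1FKO values were low and the ranges overlapped, with a log2 fold change of -1.82 (standard error 0.61) that did not pass (adjusted p = 0.538, limma). It had 44 reads over all 8 libraries, near the lowest sum that the authors kept, and a count of 0 allows up to 3 reads. *Celsr2* and *Celsr3* had log2 fold changes of -0.57 and 0.01 and did not pass.

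*Dsc2*, the measured desmocollin, had 30.1, 7.44, 7.76 and 13.8 normalised counts in controls and 19.3, 16.6, 24.9 and 15.5 in TGFβ1FKO libraries. The ranges overlapped (log2 fold change 0.54, adjusted p = 0.798, limma). Among the desmosomal partners, desmoplakin (*Dsp*) had 21.5, 19.1, 15.5 and 32.6 normalised counts in controls and 37.5, 48.7, 56.5 and 36.6 in TGFβ1FKO libraries. All TGFβ1FKO libraries were above all controls, and the log2 fold change of 1.01 did not pass (adjusted p = 0.334, limma). *Perp*, a membrane protein of desmosomes in stratified epithelia, had 57.7 ± 10.4 and 96.7 ± 20.9 normalised counts (SD, n = 4), again without overlap (log2 fold change 0.73, adjusted p = 0.357, limma). Groups did not overlap in 3.79% of all genes.

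Keratinocyte markers beside these genes were few. Of 12 markers 6 were measured, *Krt5* and *Krt14* were among those not analysed here, and the summed normalised counts of the 6 ranged from 286 to 358 in controls and from 271 to 309 in TGFβ1FKO libraries. Of these 6, 4 had lower and 2 higher means, the median log2 fold change was -0.03, limma, edgeR and DESeq2 called 0, and 2 had an unadjusted p under 0.05, 1 in each direction. *Itgb4*, the integrin subunit of hemidesmosomes, had 138 ± 32.8 and 97.5 ± 8.62 normalised counts (SD, n = 4), lower without overlap (log2 fold change -0.48, adjusted p = 0.555, limma). Of the 6 markers 1 was without overlap (16.7%, against 3.79% of all genes). *Trp63*, a transcription factor of basal keratinocytes, had 25.1 ± 4.42 and 37.8 ± 6.91 normalised counts (SD, n = 4; log2 fold change 0.57, adjusted p = 0.632, limma). The part of keratinocytes in the levels of *Dsp* and *Perp* was not tested.

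The main cytoplasmic partners of the classical cadherins differed by less than the spread between replicates. β-catenin (*Ctnnb1*) had 9674 ± 311 and 9579.7 ± 236 normalised counts, α-catenin (*Ctnna1*) 6412 ± 238 and 6389 ± 255, and p120-catenin (*Ctnnd1*) 885 ± 83.1 and 866 ± 37.1 in control and TGFβ1FKO fibroblasts (SD, n = 4). The 95% intervals of the log2 fold changes of *Ctnnb1* and *Ctnna1* lay between -0.12 and 0.10. Of 17 measured catenins and partners 12 were higher and 5 lower (29.4%, against 49.1% of all genes). Their median log2 fold change was 0.11, in a range from -0.69 to 1.01. None was called, and 4 had an unadjusted p under 0.05, all higher, where 3.59% of all genes were higher at that threshold. *Pkp4*, a p120 family member, had 575 ± 26.9 and 659 ± 32.6 normalised counts (SD, n = 4), without overlap (log2 fold change 0.20, adjusted p = 0.536, limma). Of the 17 partners 2 were without overlap (11.8%, against 3.79% of all genes).

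Of 8 measured adhesion genes outside the rule none was called, and besides *Perp* the groups did not overlap in *Nectin1* (1029.7 ± 59.2 and 1145 ± 39.2, SD, n = 4, adjusted p = 0.624, limma). Among 7 proteases that shed or cleave cadherins, such as *Adam10* and *Adam17*, none was called. *Psenen*, a subunit of γ-secretase, had 897 ± 15.9 and 798 ± 35.3 normalised counts (SD, n = 4) without overlap (log2 fold change -0.17, adjusted p = 0.536, limma). Of the 7 proteases 1 was without overlap (14.3%). Over the 6 lists of partners and regulators 60 genes were measured, and limma, edgeR and DESeq2 called 0 of them. An unadjusted p under 0.05 was reached by 7 of these 60, and by 7.46% of all genes. None of the planar cell polarity partners, the repressors of *Cdh1* or the genes for protocadherin promoter choice was without overlap. The 15 measured markers of melanocytes, skeletal muscle, macrophages and pericytes gave 0 calls by the 3 tests, with 1 unadjusted p under 0.05.

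The remaining members did not pass. T-cadherin (*Cdh13*), which lacks a cytoplasmic tail, stood at 60.8 ± 7.22 and 66.2 ± 11.6 per kb, and *Cdh26* at 49.98 ± 7.11 and 65.8 ± 18.01 per kb in control and TGFβ1FKO fibroblasts (SD, n = 4). Their log2 fold changes were 0.11 and 0.37 (adjusted p = 0.848 and 0.671, limma). *Cdh17* and *Cdh23* had log2 fold changes of -0.49 each on few reads.

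The spread between replicates varied from member to member. The SD of log2(normalised count + 1) within groups was compared with that of 200 genes of like mean. It was at the 99th percentile or above for *Pcdh20*, *Cdh19* and *Cdh5*. It was at percentile 98.5 for *Fat4*, 97.0 for *Cdh3* and *Dchs1* and 96.5 for *Cdh2* and *Cdh10*. *Pcdhb7* was at percentile 3.5. The mean was taken over all 8 libraries, and the low TGFβ1FKO counts of *Pcdh20* and *Cdh19* have a larger counting error than that mean implies. Counting alone gave an SD of 0.36 for *Pcdh20* and 0.30 for *Cdh19*, where the SD within groups was 0.78 and 0.84. The median member had an SD of 0.28 against 0.15 over all genes, and 1.76 times the SD that counting alone gives against 1.74 times over all genes.

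**Figure D5:**
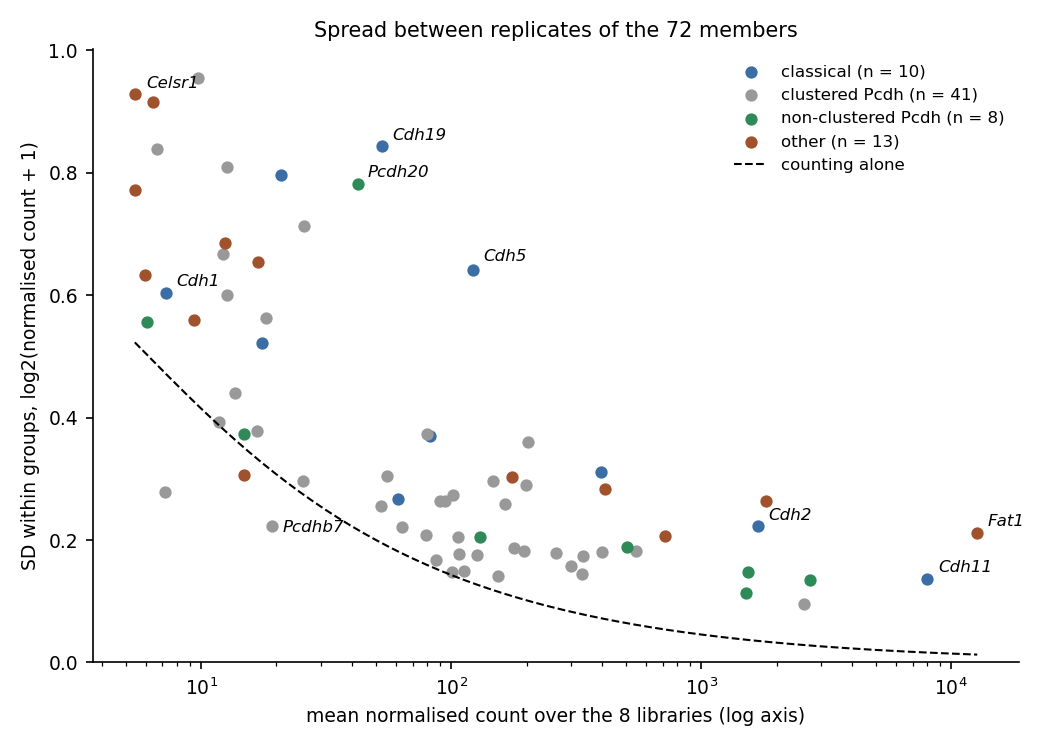
SD of log2(normalised count + 1) within groups of each of the 72 members against its mean normalised count over the 8 libraries (log axis). The dashed line is the SD that counting alone gives at that mean. *Cdh19*, *Pcdh20* and *Cdh5* lie well above most members of like mean, and *Pcdhb7* lies under the dashed line. *Cdh10*, at a lower mean, lies about as high as *Pcdh20*.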

How the data were processed

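RNA of 4 control and 4 TGFβ1FKO fibroblast cultures was sequenced from non-directional poly-A libraries. Per the labels and the submitters' processing notes, the authors aligned reads with HISAT2 2.0.5 to GRCm38, counted them with featureCounts 1.5.0-p3 and normalised them with DESeq2 1.42.0, after leaving out genes with fewer than 40 reads. What the authors deposited as normalised counts (here called a signal) is each gene's reads over the library's size factor, plus 0.5. Not used were columns of the authors' own comparison, deposited beside these: a log2 fold change with its error, a Wald score and p-values. The 0.5 was subtracted, after which 100% of values were whole reads within 0.1 of a read. Groups were compared over all 15111 genes with limma 3.58.1 (R 4.3.3, mean-variance trend, pseudocount 1, Benjamini-Hochberg adjustment), single members also with two-sided exact permutation tests, and recovered reads with edgeR 4.0.16 and DESeq2 1.42.0. Each test was checked on simulated counts with known changes. Every pair of libraries within a group differed by more than sampling noise (chi-square over its degrees of freedom, 4.89 or more). Members and gene lists were chosen with earlier results of these data known. Named members are those called under any planned test, those without overlap, the 3 highest per kb and the 3 furthest in each direction of every subfamily, and *Cdh1*, *Cdh2*, *Cdh3*, *Cdh5*, *Cdh11* and *Dsc2*. Partners are given with values where called, without overlap or among the 2 highest of a list, and *Sox10*, *Pecam1*, *Itgb4* and *Trp63* were chosen after their values were seen. Coordinates and exon lengths are from GENCODE M21, and floors and intervals cover counting error or the spread of these libraries alone, because reads copied by PCR do not count separate molecules.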

Additional observations from a re-analysis of the deposited data

Results flagged for a closer look

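Libraries far from the rest of their group were looked for in 104 groups of 4 values of the named members and of the sums over the beta array, the gamma array and all members, of which chance alone would flag about 1 in 20, or 5.2, and 2 were found. *Pcdhb22*, a beta protocadherin, had 291 normalised counts in control replicate 4, while the other control libraries lay between 336 and 343. *Fat2*, a Fat cadherin with few reads here, had 10.1 normalised counts in TGFβ1FKO replicate 1 and between 6.21 and 6.65 in the others of its group.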

How the results depend on the processing

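The limma test called 1 member, *Pcdh20*, and so did edgeR's test, TMM scaling, pseudocounts of 0.5 and 5 and a minimum mean of 10 reads. DESeq2's test against 0 called 2, *Pcdh20* and *Cdh19*. With 1 library left out in turn, between 0 and 2 members were called, 0 without control replicate 1, 2 or 3 or TGFβ1FKO replicate 2 or 4 and 2 without control replicate 4. Over all genes limma called 13, edgeR 20, DESeq2 56 and limma with 1 library left out between 5 and 32. Deviations of same-numbered libraries had r between -0.13 and 0.16, and those of differently numbered ones between -0.32 and 0.39. With so few libraries this cannot show whether the numbers pair samples, and no source used here states it. With the replicate number as a block 2 members and 31 genes were called. Members without overlap numbered 3 under scaling, pseudocounts and the read minimum and between 3 and 8 with 1 library left out, where all genes went from 3.79% to between 5.55% and 9.34%. They were 8 without control replicate 4 (11.1%, against 8.33% of all genes) and 7 without control replicate 2 (9.72% against 7.99%). They were 6 without control replicate 1 (8.33% against 7.19%) or TGFβ1FKO replicate 2 (8.33% against 6.42%). They were 5 without TGFβ1FKO replicate 1 (6.94% against 9.34%) or 3 (6.94% against 6.19%). They were 3 without control replicate 3 (4.17% against 5.82%) or TGFβ1FKO replicate 4 (4.17% against 5.55%). The median log2 fold change of the members, 0.02, moved by less than its spread under every alternative run. Of 49 named members, 30 kept their sign under all alternatives run and 19 changed it at least once, all of them when 1 library was left out and *Dchs2* also by DESeq2 (0.00998). Leaving out single libraries moved log2 fold changes across 0, between -0.076 and 0.11 for *Cdh2*, -0.24 and 0.26 for *Cdh1*, -0.10 and 0.018 for *Cdh11*, -0.084 and 0.14 for *Cdh24*, -0.23 and 0.23 for *Pcdha11*, -0.038 and 0.12 for *Pcdhb17*, and -0.019 and 0.15 for *Pcdhb22*. Further ranges were -0.22 and 0.048 for *Pcdhb16*, -0.00496 and 0.14 for *Pcdhgb2*, -0.16 and 0.0303 for *Pcdhgc5*, -0.55 and 0.15 for *Pcdhgb8*, -0.0075 and 0.12 for *Pcdh18*, -0.027 and 0.067 for *Pcdh7*, and -0.20 and 0.0065 for *Pcdh1*. The last were -0.011 and 0.60 for *Pcdh12*, -0.081 and 0.20 for *Dchs1*, -0.29 and 0.27 for *Dchs2*, -0.12 and 0.14 for *Celsr3*, and -0.000195 and 0.18 for *Cdh13*. The cause was not tested. Levels per kb were also computed over all exon bases, an alternative chosen after seeing the data, which put *Cdh11* at rank 1, *Fat1* at rank 2 and *Pcdhgc3* at rank 3. Depth limits the 9 members with a mean under 10 reads.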
